A study of Mus musculus with 9 samples.

Results

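The spliceosome genes and their regulators were examined in the livers of female C57BL/6J mice that had received early-life pulsed antibiotic treatment (PAT). All array genes whose symbol begins with Srsf (earlier Sfrs), Hnrnp, Sf3a, Sf3b, Snrp, Prpf or Tra2 were taken, together with the kinases Clk1, Clk2, Clk3 and Clk4, and each gene was read at its brightest probe set, the one with the highest mean over the 9 arrays. This gave 65 genes of the 18193 with a probe set of their own, represented by 187 of the 45037 probe sets tested. The amoxicillin mice drank 0.167 mg/ml of the drug (25 mg/kg per day) and the tylosin mice 0.333 mg/ml (50 mg/kg per day), on days 10 to 15, 28 to 31 and 37 to 40 of life, and the control mice received no antibiotic. All groups were then fed a high-fat diet, and the livers were taken months after the last course, at 24 weeks of age in the sample labels and 22 weeks in the series description. Each group had 3 arrays, and values are on the log2 RMA scale. The paper's methods state that litters were kept whole within a treatment group and were caged separately from other litters. Nothing in the labels says which mice were littermates or shared a cage. The arrays of a group may therefore not be independent, and the p-values measure the spread between these arrays. Differences between groups cannot be told apart from differences between litters or cages.

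Introns are removed from pre-mRNA by the spliceosome, which is built on each intron from small nuclear ribonucleoproteins (snRNPs). SR proteins bind exons and help recruit the machinery, hnRNP proteins coat the transcript and often oppose or redirect splice site choice, and Clk kinases phosphorylate the serine and arginine-rich tails of SR proteins. Many of these genes carry alternative exons that lower their own mRNA, and several hnRNP and SR proteins also act in mRNA export, decay and translation.

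The promoters of 4 members that recur in the results are shown with the letters of common promoter motifs in capitals. They are the 120 bases before a transcription start in RefSeq promoter entries of GRCm38.p6, written 5′ to 3′ on the gene's own strand. The annotated gene span begins at that start for Prpf39 and Clk4, and reaches past it upstream by 61 bases for Srsf11 and by 192 bases for Hnrnpd, so that part or all of those segments lies inside the gene span. Prpf39 lies at chr12:65036214-65036333 (plus strand) and its capitals mark a GC box and an E-box. Srsf11 is at chr3:158036607-158036726 (minus strand, before the more upstream of 2 listed starts), with an ETS motif and a GC box read on the opposite strand. The Clk4 segment is chr11:51262994-51263113 (plus strand), with a cyclic AMP response element (CRE) and a GC box. Hnrnpd is at chr5:99978939-99979058 (minus strand), with 3 GC boxes and an E-box.
Prpf39: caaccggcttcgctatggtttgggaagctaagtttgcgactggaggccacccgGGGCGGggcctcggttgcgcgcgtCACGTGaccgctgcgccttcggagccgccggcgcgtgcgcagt
Srsf11: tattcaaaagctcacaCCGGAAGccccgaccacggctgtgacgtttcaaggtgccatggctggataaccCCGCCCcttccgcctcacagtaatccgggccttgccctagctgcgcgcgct
Clk4: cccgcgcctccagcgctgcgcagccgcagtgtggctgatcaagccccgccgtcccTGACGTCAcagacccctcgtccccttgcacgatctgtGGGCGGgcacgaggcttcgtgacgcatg
Hnrnpd: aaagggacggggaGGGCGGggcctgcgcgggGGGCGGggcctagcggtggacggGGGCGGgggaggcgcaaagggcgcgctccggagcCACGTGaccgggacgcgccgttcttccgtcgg

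RefSeq promoters were found for 58 of the 65 members. The 250 bases before each listed start were searched, and a gene counted as a match if any of its starts had the motif. The GC box (GGGCGG), searched like the other motifs on both strands, stood in 40 members (69.0%). It stood in 64.8% of the 6350 array genes with a promoter and a log2 value over 6, and in 35.4% of all 27025 genes with a promoter. The ETS motif (CCGGAAG) stood in 18 (31.0%), against 16.9% and 7.83%. The CCAAT box stood in 29 (50.0%), against 40.2% and 37.5%, and the CRE (TGACGTCA) in 3 (5.17%), against 2.99% and 1.77%. The E-box (CACGTG) was found in 6 members (10.3%), against 10.6% and 6.86%, and TATAAA in 5 (8.62%), against 8.22% and 14.3%. None of these motifs contains another, and each match describes letters only.

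The array files gave normalized values without read depth, and the number of arrays limits the precision. The hepatocyte markers were near the top of the scale, with a summed level of 16.62 to 16.68 over all 9 arrays. Amoxicillin replicate 1 and tylosin replicate 2 stood apart by smooth muscle markers. Their summed levels were 9.28 and 9.48, against 7.38 to 7.78 in the other 7 arrays. The same 2 arrays were highest for some intestinal mucosa markers, such as Reg3b, at 10.18 and 9.72. The other arrays had 2.67 to 3.15, except tylosin replicate 1 (7.75). Not all of that list followed, since Fabp2 had 11.03 and 11.13, against 10.90 to 11.62 in the other arrays. The summed levels of the list were 11.94 and 11.86, against 11.19 to 11.72. Of the 4 cholangiocyte markers measured, Epcam (7.10 and 6.48, against 3.78 to 4.83 in the other arrays) and Krt19 (5.65 and 4.90, against 3.88 to 4.26) were high in the same 2 arrays. Sox9 (4.62 and 4.78) and Krt7 (3.53 and 3.21, against 3.13 to 3.55) were not. Tylosin replicate 3 had the highest macrophage (13.25) and lymphocyte (9.23) sums. The proliferation sums were 9.53 to 9.57 in the tylosin arrays, 9.10 to 9.54 in the amoxicillin arrays and 8.93 to 9.27 in control. Of the 5 proliferation markers measured, only Pcna was over 6, and its tylosin arrays all lay above control, by 0.44. Mki67, Top2a, Cdk1 and Birc5 overlapped with control. None of the 8 marker lists had a gene called in any comparison. As a measure of RNA integrity, the 3′ control probe set of Actb exceeded the 5′ one on the log2 scale by 1.57, 1.39 and 1.57 in the amoxicillin arrays, 1.49, 1.73 and 1.21 in the tylosin arrays and 1.29, 1.39 and 1.40 in the control arrays. In these bulk samples, fewer cells of a type and less RNA per cell cannot be told apart.

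Splicing genes were on balance higher in the livers of both antibiotic groups than in control livers, by small amounts. The hnRNP proteins had the highest family median with both, with tylosin only just above the Clk kinases. With amoxicillin, 49 of 65 members had a higher mean than control (75.4%), with a median log2 fold change of 0.11 and a span of -0.38 to 0.58. With tylosin, 47 of 65 had a higher mean (72.3%), with a median of 0.18 and a range of -0.43 to 0.68. The medians over all genes were -0.03 and -0.01. At least 3 arrays exceeded a value of 6 for 62 members (the exceptions were Snrpn, Srsf12 and Prpf31), and over the 7732 genes that met this condition the medians were 0.06 and 0.08 and the shares with a higher mean 64.3% and 66%. The comparisons share the control arrays, so they are not independent of each other.

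A gene was called changed where limma gave an unadjusted p below 0.01 with a difference of more than 0.5 in either direction. With amoxicillin, Hnrnpf rose and no member fell, a share of 1 in 65 beside 0.835% of all genes called higher, 0.445% called lower and 1.41% called higher among genes over 6. With tylosin, Prpf39 rose and no member fell, beside 1.01% called higher, 0.44% called lower and 1.81% called higher among genes over 6. These counts of members were near the background. No member passed an adjusted p of 0.05, and the lowest adjusted values were 0.199 with amoxicillin and 0.182 with tylosin. With single arrays left out, 0 to 4 members were called with amoxicillin and 1 to 5 with tylosin. The count of 4 came without control replicate 1 (6.15%, beside 2.63% of genes over 6). It was 0 without control replicate 3, amoxicillin replicate 1 or amoxicillin replicate 3, beside 1.13%, 1.2% and 1.38% of genes over 6. The count of 5 with tylosin came without tylosin replicate 3 (7.69%, beside 5.63% of genes over 6). At an unadjusted limma p under 0.05, 20 of 65 members were higher and 1 was lower with each antibiotic. Among the 7732 genes over 6, 997 were higher and 269 lower with amoxicillin at the same limma threshold. With tylosin 1133 were higher and 297 lower.

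For 17 members (26.2%), the 3 amoxicillin arrays all lay above the 3 control arrays, beside 9.52% of all genes and 17.4% of genes over 6. The amoxicillin arrays all lay below control for 2 members, Hnrnpc and Sf3b4, beside 11.4% of all genes and 6.51% of genes over 6. With tylosin, 16 members (24.6%) lay wholly above control, beside 8.21% and 14.5%, and 1 member, Hnrnpab, wholly below, beside 9.15% and 4.73%. Fewer arrays make such separation easier. Without control replicate 1, 33 members (50.8%) did not overlap in each comparison, in place of 19 and 17, beside 38.4% of genes over 6 with amoxicillin and 32.5% with tylosin under the same omission. Without tylosin replicate 3, 35 members (53.8%) did not overlap between tylosin and control, beside 45% of genes over 6.

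**Figure D1:**
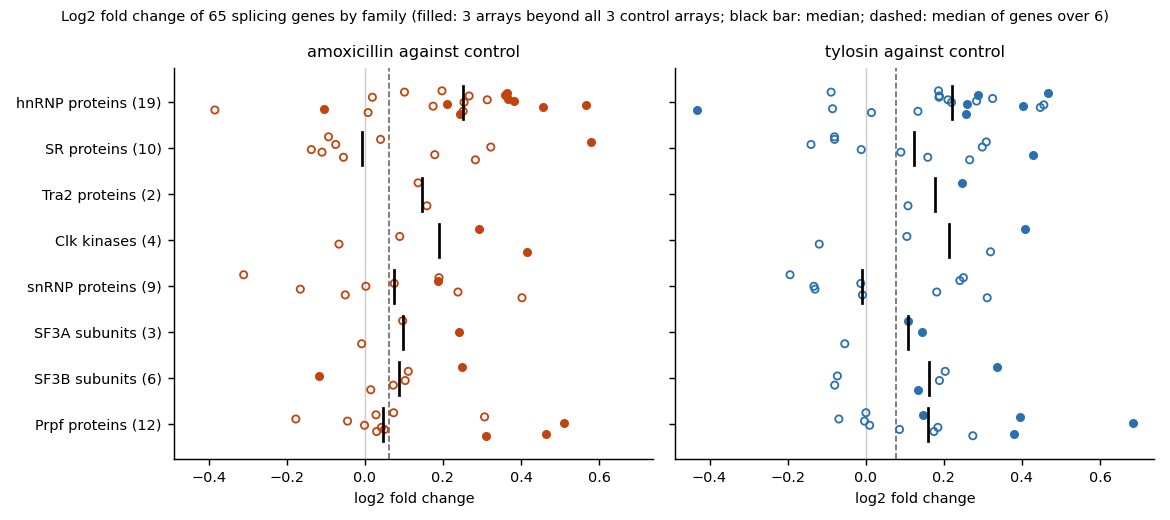
Log2 fold change against control (x axis) of each of the 65 splicing genes at its brightest probe set, by family (rows), for amoxicillin (left) and tylosin (right). Filled points have all 3 antibiotic arrays beyond all 3 control arrays, the black bars are family medians and the dashed line is the median of genes over 6 (0.06 and 0.08). The hnRNP medians, 0.25 and 0.22, lie to the right of that line with both antibiotics.

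The hnRNP proteins held 17 of 19 members with a higher mean with amoxicillin (89.5%) and 16 of 19 with tylosin (84.2%). Their median log2 fold changes were 0.25 and 0.22, and 8 and 5 of the 19 (42.1% and 26.3%) lay wholly above control. Beside this and the other families, 64.3% and 66% of genes over 6 had a higher mean. Wholly above control lay 17.4% and 14.5% of genes over 6, and 26.2% and 24.6% of all members. The Clk kinases had the next highest medians, 0.19 and 0.21. Hnrnpf, which binds G-rich runs in RNA, had 10.66, 10.46 and 10.52 in the amoxicillin arrays, 10.72, 10.55 and 10.05 in the tylosin arrays and 10.12, 9.94 and 9.89 in the control arrays (an x-type probe set). All amoxicillin arrays lay above the controls, while tylosin replicate 3 fell below the highest control. The log2 fold change was 0.57 ± 0.16 (SE) with amoxicillin, with a limma adjusted p of 0.221, and 0.46 ± 0.16 with tylosin. The call with amoxicillin was lost when control replicate 2 (0.55), control replicate 3 (0.52), amoxicillin replicate 1 (0.51) or amoxicillin replicate 3 (0.58) was left out. It also depended on the probe set. A second x-type probe set of Hnrnpf, a design that can cross-hybridize with other transcripts, was called with 9.46, 9.37 and 9.43 in the amoxicillin arrays, against 9.12, 8.77 and 8.87 in control. The remaining 2 probe sets differed from control by 0.03 and -0.04 with amoxicillin, and by 0.22 and 0.12 with tylosin.

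Hnrnpu, a nuclear scaffold protein that binds RNA and chromatin, had 9.88, 9.88 and 9.79 in the amoxicillin arrays, 10.07, 10.08 and 9.71 in the tylosin arrays and 9.51, 9.63 and 9.32 in control. Neither antibiotic group overlapped with control. The log2 fold changes were 0.36 ± 0.12 with amoxicillin and 0.47 ± 0.12 with tylosin (limma adjusted p = 0.256 and 0.19), below the fold needed for a call. Its other 4 probe sets were higher too, by 0.15 to 0.51 in amoxicillin livers and by 0.15 to 0.41 in tylosin livers. Tylosin replicate 3 was the lowest antibiotic array, and without it Hnrnpu was called at 0.59 with tylosin. Hnrnpd, also known as AUF1, binds AU-rich elements and takes part in mRNA decay. It measured 8.40, 8.27 and 8.17 with amoxicillin, 8.56, 8.17 and 8.09 with tylosin and 8.13, 7.73 and 7.61 in control. Control replicate 1 sat close to the antibiotic arrays and above tylosin replicate 3. The log2 fold changes were 0.46 ± 0.16 and 0.45 ± 0.16 (limma adjusted p = 0.265 and 0.255), and without control replicate 1 both passed the call, at 0.61 and 0.60. Its 2 other probe sets, both dim, were at 0.02 and 0.46 with amoxicillin. With tylosin 1 of them was higher than control and the other was at -0.05.

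Hnrnpdl, a close relative of Hnrnpd, had 9.92, 9.91 and 9.91 in the amoxicillin arrays, 10.06, 10.25 and 10.10 in the tylosin arrays and 9.74, 9.55 and 9.91 in control at its brightest probe set. The tylosin arrays lay above all others, and the log2 fold change was 0.40 ± 0.10 with tylosin, against 0.17 ± 0.10 with amoxicillin. Its 6 other probe sets were all higher than control with both antibiotics. One of them was called with both, at 6.62, 6.50 and 6.53 in the amoxicillin arrays and 6.67, 6.60 and 6.56 in the tylosin arrays, against 6.21, 5.52 and 6.04 in control. The differences were 0.63 and 0.69, and no array of either antibiotic overlapped with control. A dim probe set was called with amoxicillin as well, at a log2 fold change of 0.87. Hnrnpr, a relative of the RNA-binding protein Syncrip, had 8.90, 8.74 and 8.69 in the amoxicillin arrays, 8.74, 8.69 and 8.69 in the tylosin arrays and 8.48, 8.58 and 8.20 in control. Both groups were above all controls, by 0.36 ± 0.11 and 0.29 ± 0.11, and all 4 other probe sets were higher with both antibiotics. One was called with amoxicillin, at 8.62, 8.54 and 8.55, against 8.24, 8.06 and 7.45 in control.

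The splicing repressors Hnrnpa1 and Hnrnpa2b1 gave contrasting pictures over their probe sets. At its brightest probe set Hnrnpa1 differed from control by 0.01 with either antibiotic, while a dim probe set was called with both, at 0.74 and 0.52, with 4.12, 3.85 and 4.57 in the amoxicillin arrays, 4.04, 3.99 and 3.84 in the tylosin arrays and 3.41, 3.53 and 3.37 in control. Such low values lie below the level of 6 used to mark expressed genes. The third probe set of Hnrnpa1, which is over 6, had 7.26, 7.35 and 7.57 in the amoxicillin arrays, 7.19, 7.27 and 7.27 in the tylosin arrays and 7.30, 6.70 and 6.75 in control. Control replicate 1 overlapped with both antibiotic groups, and the differences of 0.48 ± 0.15 and 0.33 ± 0.15 were not called. Hnrnpa2b1 was higher at all 4 probe sets, by 0.23 to 0.28 (amoxicillin) and 0.13 to 0.37 (tylosin), and none was called. Further members chosen after their values were seen were Hnrnpl, which binds CA repeats (0.37 ± 0.11 and 0.32 ± 0.11), and Hnrnph1, a G-run binder (0.21 ± 0.09 and 0.26 ± 0.09). The single other probe set of Hnrnpl went the opposite way, at -0.15 and -0.24. That of Hnrnph1 was at 0.26 with amoxicillin and went the opposite way with tylosin, at -0.15. Both of these other probe sets were dim.

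Hnrnpab, an A/B-type protein, was the hnRNP member with the largest negative difference. It had 11.25, 11.89 and 11.46 in the amoxicillin arrays, 11.32, 11.34 and 11.79 in the tylosin arrays and 11.96, 11.98 and 11.81 in control. All tylosin arrays were below the controls, tylosin replicate 3 by a narrow margin, and amoxicillin replicate 2 overlapped with control. The log2 fold changes were -0.38 ± 0.17 and -0.43 ± 0.17 (limma adjusted p = 0.335 and 0.292). Its 6 other probe sets lay between -0.07 and 0.34 with amoxicillin and between -0.06 and 0.36 with tylosin. Without amoxicillin replicate 2 the amoxicillin difference passed the call at -0.565, and without tylosin replicate 3 the tylosin difference did so at -0.586. Hnrnpc, which binds uridine tracts, lay wholly below control with amoxicillin by only -0.10 ± 0.08.

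**Figure D2:**
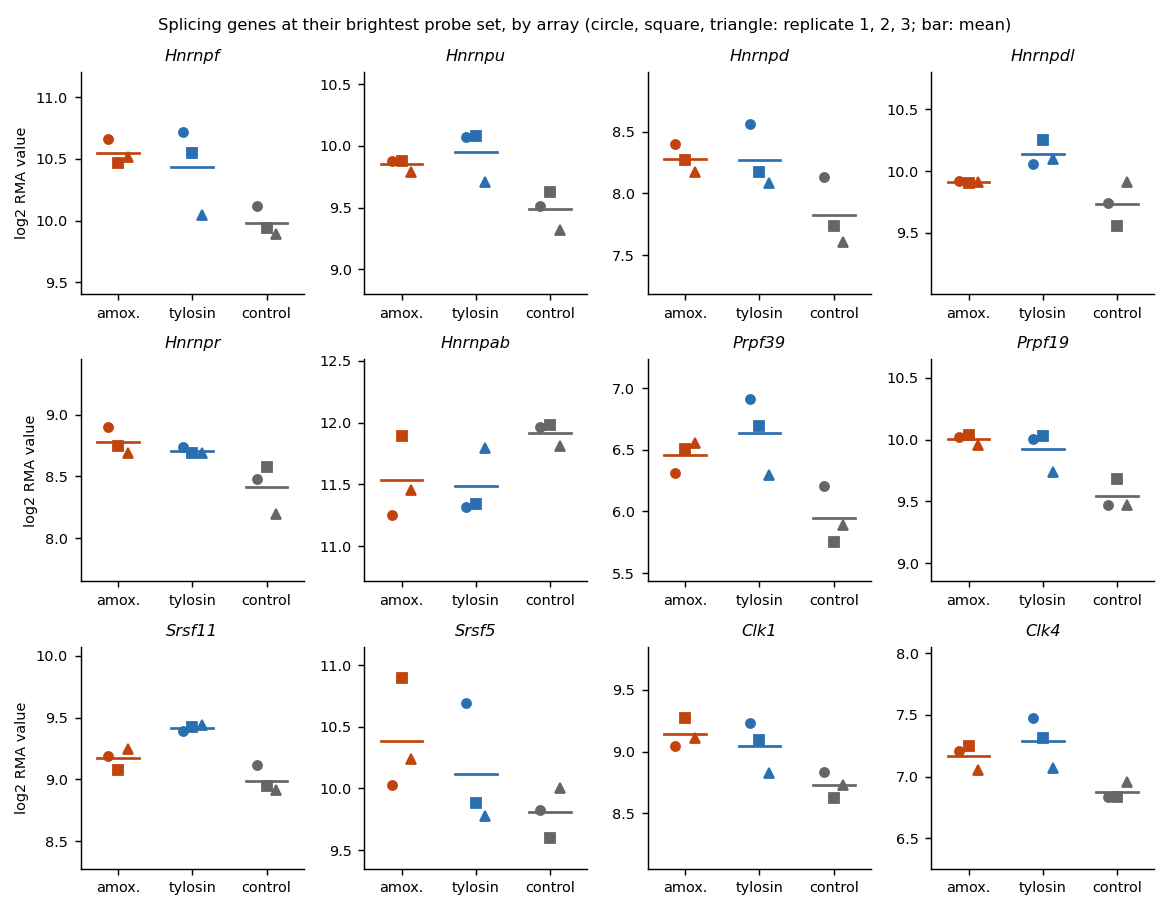
Log2 RMA value (y axis, own scale for each gene) in each array of 12 splicing genes at their brightest probe set. Circles, squares and triangles are replicates 1, 2 and 3 and bars are group means. The tylosin arrays of Srsf11 (9.39 to 9.44) lie above all others, and the Hnrnpab values with tylosin (11.32 to 11.79) lie below all controls.

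The Prpf proteins act at several steps of spliceosome assembly. With amoxicillin 9 of 12 had a higher mean and with tylosin 10 of 12, with medians of 0.05 and 0.16. Prpf39, a protein associated with the U1 snRNP, had 6.31, 6.51 and 6.55 in the amoxicillin arrays, 6.91, 6.69 and 6.29 in the tylosin arrays and 6.20, 5.75 and 5.89 in control. All 6 antibiotic arrays lay above the 3 controls, although tylosin replicate 3 and amoxicillin replicate 1 came close to control replicate 1. The log2 fold change was 0.68 ± 0.16 with tylosin (limma adjusted p = 0.188) and 0.51 ± 0.16 with amoxicillin (0.25), where the unadjusted p of 0.0107 missed the call. The tylosin call held when any single tylosin or control array was left out, at 0.54 to 0.85. Its 2 other probe sets were higher by 0.46 and 0.63 with amoxicillin and by 0.67 and 0.62 with tylosin, so that all 3 probe sets of this gene lay above control. One of them was called with tylosin.

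Prpf19, a ubiquitin ligase of the activated spliceosome, had 10.02, 10.03 and 9.96 in the amoxicillin arrays, 10.00, 10.03 and 9.74 in the tylosin arrays and 9.47, 9.68 and 9.47 in control. No antibiotic array overlapped with control at this x-type probe set, and the log2 fold changes were 0.46 ± 0.10 (limma adjusted p = 0.199) and 0.38 ± 0.10 (0.2). All 4 other probe sets lay on the opposite side of control, at -0.18 to -0.08 (amoxicillin) and -0.15 to -0.06 (tylosin). The direction of Prpf19 differed between its probe sets. Prpf4b, a kinase of the spliceosome, had 7.49, 7.57 and 7.68 with amoxicillin, 7.56, 7.78 and 7.66 with tylosin and 7.13, 7.15 and 7.54 in control. Control replicate 3 overlapped with the amoxicillin arrays only. The differences were 0.31 ± 0.12 and 0.39 ± 0.12, and without control replicate 3 the tylosin difference was called at 0.53. The 5 other probe sets of Prpf4b lay between -0.13 and 0.39 with amoxicillin and between -0.26 and 0.49 with tylosin. With each antibiotic 4 of the 5 were higher. The values of Prpf8, the large protein at the catalytic centre, differed from control by 0.07 ± 0.09 and 0.00 ± 0.09, and those of Prpf40b, a U1-associated relative of a yeast splicing factor, by -0.18 ± 0.14 and -0.07 ± 0.14.

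The SR proteins were divided. With amoxicillin 5 of 10 had a higher mean and with tylosin 6 of 10, with medians of -0.01 and 0.12. Srsf11, which contacts the factors bound at the 3′ splice site, had 9.19, 9.08 and 9.25 in the amoxicillin arrays, 9.39, 9.43 and 9.44 in the tylosin arrays and 9.12, 8.94 and 8.91 in control. The tylosin arrays were above every other array. The log2 fold change of 0.43 ± 0.09 with tylosin had the lowest adjusted p of any member (0.182) and was under the fold needed for a call, against 0.18 ± 0.09 with amoxicillin (0.379). Its 3 other probe sets were higher by 0.30 to 0.40 in amoxicillin livers and by 0.45 to 0.54 in tylosin livers. One of them was called with tylosin, at 7.74, 7.86 and 7.51, against 7.17, 7.09 and 7.22 in control.

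Srsf5 had the largest amoxicillin difference of any member, 0.58 ± 0.26, and was not called. It had 10.03, 10.90 and 10.24 in the amoxicillin arrays, 10.69, 9.89 and 9.78 in the tylosin arrays and 9.83, 9.60 and 10.00 in control. Amoxicillin replicate 1 exceeded control replicate 3 by little, and only 1 tylosin array was above all controls. Srsf3, among the smallest SR proteins and tied to mRNA export, was chosen after its values were seen. It was higher at all 6 of its probe sets, by 0.15 to 0.52 with amoxicillin and 0.24 to 0.45 with tylosin, and none was called. Srsf2, a regulator of exon inclusion, was at -0.14 ± 0.12 and -0.01 ± 0.12, and Srsf4 at -0.07 ± 0.15 and -0.14 ± 0.15. Srsf10, an SR protein that can act as a repressor, was at -0.05 ± 0.13 with amoxicillin and 0.16 ± 0.13 with tylosin. Its 3 other probe sets, all over 6, were higher with both, by 0.19 to 0.40 with amoxicillin and by 0.24 to 0.38 with tylosin, and none was called.

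Both Tra2 proteins, relatives of a fly sex determination factor that activate exons, had higher means. Tra2b had 9.23, 8.91 and 9.05 in the amoxicillin arrays, 9.18, 9.22 and 9.12 in the tylosin arrays and 9.05, 8.82 and 8.91 in control. Its tylosin arrays were above all controls, by 0.25 ± 0.10, and its amoxicillin arrays overlapped with them, at 0.14 ± 0.10. The 4 other probe sets of Tra2b lay between -0.10 and 0.68 with amoxicillin and between -0.14 and 0.49 with tylosin. With each antibiotic 3 of the 4 were higher. A dim probe set of Tra2b was called with amoxicillin, at 5.25, 4.66 and 4.68, against 3.99, 4.41 and 4.16 in control. Among the Clk kinases, Clk1 and Clk4 had the larger differences. Clk1 had 9.05, 9.28 and 9.11 in the amoxicillin arrays, 9.23, 9.09 and 8.82 in the tylosin arrays and 8.83, 8.63 and 8.73 in control. The amoxicillin arrays did not overlap with control, and tylosin replicate 3 did. The log2 fold changes were 0.42 ± 0.12 and 0.32 ± 0.12 (limma adjusted p = 0.232 and 0.272).

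Clk4 had 7.20, 7.25 and 7.05 in the amoxicillin arrays, 7.47, 7.32 and 7.07 in the tylosin arrays and 6.84, 6.84 and 6.96 in control. Both antibiotic groups lay above all controls, by 0.29 ± 0.11 and 0.41 ± 0.11, and its other probe set was higher by 0.21 and 0.34. Without tylosin replicate 3, Clk4 was called with tylosin at 0.52. Clk2 and Clk3 overlapped with control in both groups, at -0.07 ± 0.11 and -0.12 ± 0.11 for Clk2 and 0.09 ± 0.11 and 0.11 ± 0.11 for Clk3.

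Among the snRNP proteins, 6 of 9 had a higher mean with amoxicillin and 4 of 9 with tylosin, with medians of 0.08 and -0.01, and 1 and 0 lay wholly above control. Snrpc, a U1 protein, was at -0.17 ± 0.11 and -0.13 ± 0.11. Snrpa1, a U2 protein chosen after its values were seen, was at 0.40 ± 0.14 and 0.31 ± 0.14 and was higher at all 3 probe sets. Snrpd3, an Sm ring protein, differed by 0.00 ± 0.09 and -0.13 ± 0.09 at its brightest probe set. Another of its probe sets had 6.82, 7.21 and 6.91 in the amoxicillin arrays, 6.74, 5.95 and 7.31 in the tylosin arrays and 7.50, 7.45 and 7.50 in control. All 6 antibiotic arrays were below the controls, with tylosin replicate 2 the farthest, and the differences of -0.51 ± 0.27 and -0.82 ± 0.27 were not called.

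The SF3A and SF3B complexes hold the U2 snRNP at the branch point. Their median differences were 0.10 and 0.11 for the 3 SF3A subunits and 0.09 and 0.16 for the 6 SF3B subunits, and no subunit was called. Sf3a1 was at -0.01 ± 0.10 and -0.05 ± 0.10 at its brightest probe set, with the others between -0.39 and 0.30 with amoxicillin. Sf3b4 had 8.22, 8.43 and 8.41 in the amoxicillin arrays and 8.44, 8.45 and 8.53 in control, a full separation at a difference of -0.12 ± 0.13. Its tylosin arrays, at 8.31, 8.19 and 8.70, spread on both sides of control. Sf3b6, a small subunit at the branch point that was chosen after its values were seen, was wholly above control with both antibiotics, by 0.25 ± 0.12 and 0.34 ± 0.12. Sf3b1, the subunit that clasps the branch point, was at 0.02 ± 0.08 and 0.13 ± 0.08. Its 3 other probe sets, all over 6, were higher with both antibiotics, by up to 0.39 and 0.30.

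For 46 members with more than 1 probe set, the other probe sets were compared with the brightest. Of 122 other probe sets, 88 had the sign of the brightest with amoxicillin and 87 with tylosin. Among those with values over 6 the counts were 56 and 55 of 71, and among dimmer ones 32 of 51 with each antibiotic. All probe sets shared a sign for 26 members with amoxicillin and 25 with tylosin. The other probe sets were called 6 times with amoxicillin and 4 times with tylosin, always higher, out of 122, beside 1.35% and 1.42% of all probe sets called in either direction. Their medians were 0.14 with each antibiotic. Prpf39, Srsf11, Hnrnpu, Hnrnpr, Hnrnpdl and Hnrnpa2b1 were higher at every probe set with both antibiotics, whereas Prpf19 and Hnrnpab were not alike across theirs.

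**Figure D3:**
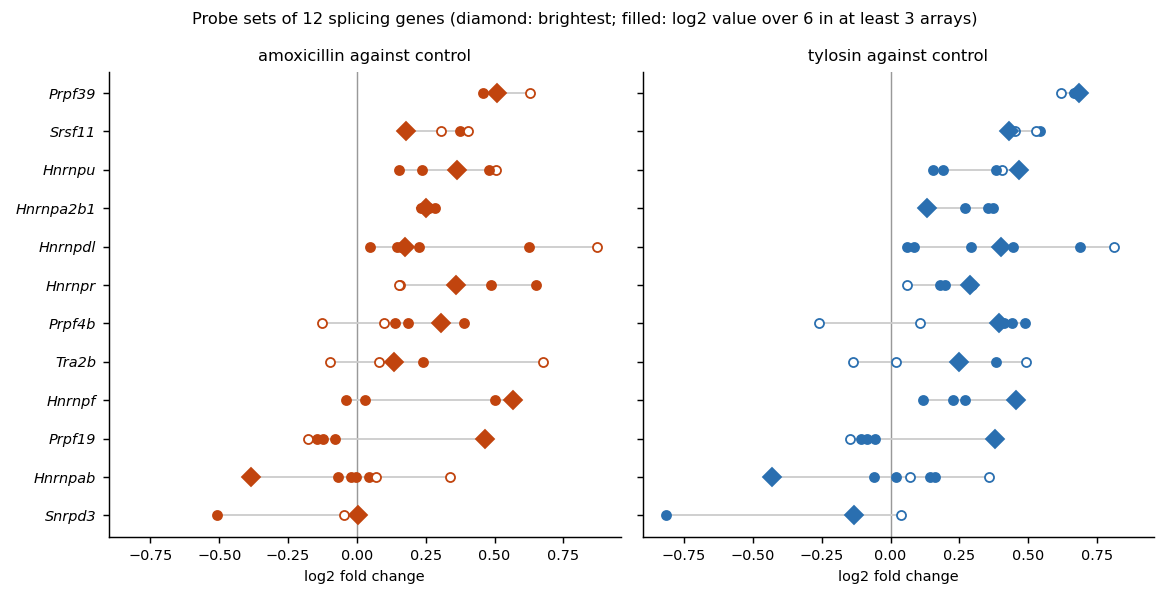
Log2 fold change against control (x axis) of every probe set of 12 splicing genes (rows), for amoxicillin (left) and tylosin (right). Diamonds are the brightest probe set and filled points have log2 values over 6 in at least 3 arrays. The 3 probe sets of Prpf39 lie together at 0.46 to 0.63 and 0.62 to 0.68, and the brightest probe set of Prpf19 (0.46 and 0.38) lies apart from its 4 others.

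Each array was also summarized by the median of the 65 members relative to the control mean. The medians were 0.18, 0.09 and 0.14 in the amoxicillin arrays, 0.25, 0.13 and 0.15 in the tylosin arrays and 0.04, -0.01 and -0.05 in the control arrays. Every antibiotic array was above every control array. The medians of all genes over 6 also lay above every control array, at 0.09, 0.03 and 0.07 in the amoxicillin arrays and 0.13, 0.06 and 0.03 in the tylosin arrays, against 0.02, 0.01 and -0.02 in the control arrays. Of the arrays with more smooth muscle signal, amoxicillin replicate 1 had the highest median of its group and tylosin replicate 2 the lowest of its own. With both left out, the median was 0.10 with amoxicillin and 0.19 with tylosin. No member was then called with either, beside 0.944% and 1.66% of genes over 6. Hnrnpf (0.51) and Prpf39 (0.65) missed the p threshold. The part of RNA integrity and of the cell type markers in these differences was not tested.

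**Figure D4:**
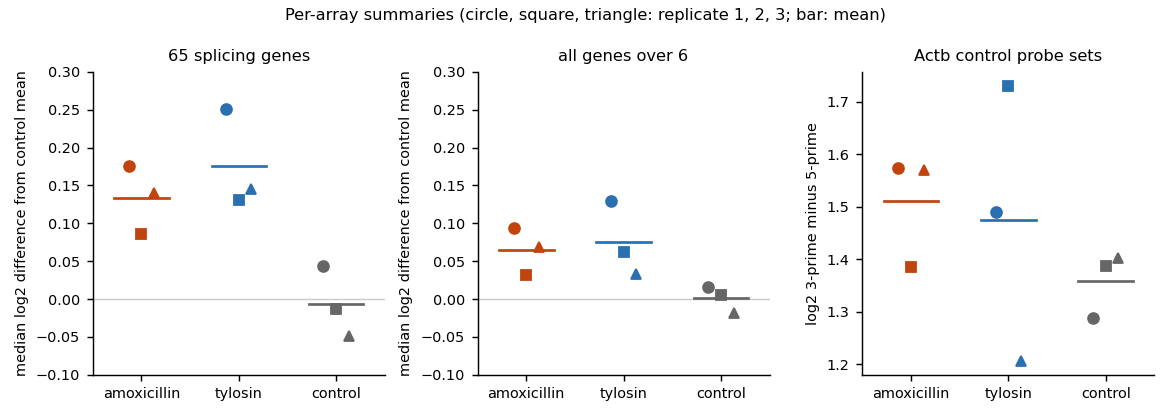
Per-array summaries by group. Left and middle, the median log2 difference from the control mean over the 65 splicing genes and over all genes over 6, and right, the log2 difference between the 3′ and 5′ control probe sets of Actb, with bars at group means. The members' medians run from 0.09 to 0.25 in the antibiotic arrays and from -0.05 to 0.04 in the control arrays.

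The deposited scaling mattered for the size of the shift. With each array centred on its median, 81.5% of members were higher with amoxicillin and 78.5% with tylosin, beside 74.7% and 75.5% of genes over 6. The members' medians were then 0.16 and 0.23, and those of genes over 6 were 0.12 and 0.13. With quantile normalization the shares were 60% and 66.2%, beside 47.2% and 49.1%, the medians 0.05 and 0.09, and the medians of genes over 6 -0.0123 and -0.0039. Under quantile normalization 9 and 10 members lay wholly above control (13.8% and 15.4%), beside 9.91% and 8.21% of genes over 6, and 5 and 4 wholly below (7.69% and 6.15%), beside 15.1% and 11.1%. Hnrnpf with amoxicillin and Prpf39 with tylosin were called under all 3 scalings.

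Other splicing genes were taken as a list of 138, of which 125 were measured. With amoxicillin 2 were called higher and with tylosin 3, none was called lower, and the medians were 0.09 and 0.12. The amoxicillin arrays of these genes lay wholly above control for 27 and wholly below for 3, and their tylosin arrays for 24 and 1. The shares wholly above control were 21.6% and 19.2%, beside the 17.4% and 14.5% of genes over 6 given for the members, and the called counts were near the 1.41% and 1.81% of genes over 6 called higher. Pnisr, an SR-related protein with an earlier Sfrs symbol, rose with both antibiotics, at 7.15, 7.25 and 7.43 in the amoxicillin arrays and 7.23, 7.45 and 6.96 in the tylosin arrays, against 6.34, 6.57 and 6.84 in control. The differences were 0.69 and 0.63, and no antibiotic array overlapped with control. Srpk2, a kinase that phosphorylates SR proteins, rose with amoxicillin (0.66), at 7.24, 7.14 and 6.96, against 6.48, 6.73 and 6.14. With tylosin the other calls were Lsm8, an Sm-like protein of the U6 snRNP (0.53), at 7.75, 7.50 and 7.57, against 7.47, 6.98 and 6.78 in control, and Mbnl3, a muscleblind-like splicing regulator at low values (0.56). Without tylosin replicate 2 none of the 125 was called with tylosin, beside 1.63% of genes over 6 under the same omission. Without tylosin replicate 3 there were 7, beside 5.63%. Without control replicate 2 there were 6, beside 2.6%, and without control replicate 3 there was 1, beside 1.73%. With amoxicillin there were 6 without control replicate 1, beside 2.63%, and 4 without amoxicillin replicate 2, beside 1.84%.

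The antibiotics were compared with each other directly, and the members differed little. The median log2 difference of tylosin minus amoxicillin was 0.01, with a range of -0.27 to 0.25, and 35 of 65 members were higher with tylosin. No member was called by limma, beside 0.0715% of all genes called higher and 0.0385% called lower, and the lowest adjusted p was 1. In 3 members the tylosin arrays lay wholly above the amoxicillin arrays, beside 3.58% of all genes, and in 0 wholly below, beside 2.56%. They were Srsf11, Hnrnpdl and Prpf38a, a factor of the precatalytic spliceosome, the last chosen after its values were seen. Srsf11 differed by 0.25 ± 0.09, with an unadjusted p of 0.0188 in the limma fit, and no other member had one under 0.05. Hnrnpdl differed by 0.23 ± 0.10 and Prpf38a by 0.14 ± 0.10. At the negative end, Srsf5 was at -0.27 ± 0.26 and Hnrnpul1, a relative of Hnrnpu, at -0.19 ± 0.10. Further named members were Hnrnpll (0.17 ± 0.14), Prpf3 (0.14 ± 0.09), Sf3b2 (-0.15 ± 0.12) and Srsf6 (-0.12 ± 0.09). No member lay wholly above control with one antibiotic and wholly below it with the other.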

How the data were processed

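Liver RNA from 9 mice (3 amoxicillin, 3 tylosin and 3 control) was hybridized to Affymetrix whole-genome mouse arrays. The authors normalized the arrays by RMA with the affy package and deposited log2 values for 45101 probe sets, which range from 2.00 to 14.71. Of these, 64 manufacturer controls were left out of the tests. Probe sets were named through the platform annotation, in which 34958 had 1 symbol, 932 several and 9211 none here, and those with several symbols were not used, so that genes found only there were not analysed here. Expression above a log2 value of 6 in at least 3 arrays marked 28.4% of probe sets. RMA shares information between arrays and can compress low values, so fold changes of dim probe sets may be understated. This was not tested, and some dim probe sets are named because they passed the call.

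One limma model (limma 3.58.1, R 4.3.3) with group as its only term was fitted over 45037 probe sets and all 9 arrays, with Benjamini-Hochberg adjustment over all of them. Calls used the thresholds of the study's methods. Family medians and counts of arrays that do not overlap are descriptions without a test. Alternatives were median centring, quantile normalization, a filter on dim probe sets, trended variance, array weights, fits on 2 groups, other choices of probe set, a replicate block and each array left out. Another fit did without both amoxicillin replicate 1 and tylosin replicate 2. The fit was checked on simulated data. Figures were drawn with matplotlib 3.10.9. Promoter letters came from RefSeq (GRCm38.p6).

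Named genes were those called at any probe set, the 6 largest differences each way in each comparison among members over 6, the 4 Clk kinases, and the 5 members ranging most widely over at least 3 probe sets with each antibiotic. Others are given as chosen after their values were seen, or as counts. The members, gene lists and tests were chosen with earlier results of these data known. The alternatives for the other splicing genes and the values over genes above 6, also under each alternative, were added after seeing the data.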

Additional observations from a re-analysis of the deposited data

How the results depend on the processing

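No member passed an adjusted p under 0.05 (0 with either antibiotic, 0 among the other splicing genes). With amoxicillin, the count of called members was 1, and became 3 with median centring, 2 with trended and robust variance, array weights or only the 2 groups compared, 0 without x-type or s-type probe sets, and 0 to 4 with 1 array left out (4 without control replicate 1, 0 without control replicate 3, amoxicillin replicate 1 or amoxicillin replicate 3, and 2 without amoxicillin replicate 2, tylosin replicate 1 or tylosin replicate 3). With tylosin it was 1, and became 2 with median centring, 3 with array weights and 1 to 5 with 1 array left out (5 without tylosin replicate 3, 2 without any one control). With median centring, 4.62% and 3.08% of members were called, beside 2.48% and 3.09% of genes over 6 (1.71% and 2.13% as deposited). Without x-type or s-type probe sets, 1.63% of genes over 6 were called with amoxicillin. With 1 array left out, 1.13% to 2.63% of genes over 6 were called with amoxicillin and 1.32% to 5.63% with tylosin. No such share was computed for the trended variance, array weights, 2-group or replicate block fits. The fit without both amoxicillin replicate 1 and tylosin replicate 2 gave 0 and 0 called members, and 1 and 0 other splicing genes. Beside these, 0.944% and 1.66% of genes over 6 were called. The other splicing genes called, out of 125, were 2 with amoxicillin (5 with median centring, 2 to 6 with 1 array left out) and 3 with tylosin (5 with median centring, 0 to 7 with 1 array left out). The shares of genes over 6 given for the members under each alternative stand beside these counts too. With the replicate block, 4 other splicing genes were called with amoxicillin, while the member counts stayed at 1, 1 and 0 and the medians did not change. Nothing in the labels says that the replicate numbers pair the samples. Of 9 same-numbered pairs, 2 had a correlation of deviations over 0.1. Differently numbered pairs were not compared, so these values cannot decide whether the numbers pair the samples.

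The median over members was 0.0496 with amoxicillin and 0.0866 with tylosin after quantile normalization, and 0.10 to 0.16 and 0.12 to 0.19 with 1 array left out, the lowest tylosin value being without control replicate 3. Members without overlap numbered 19 with amoxicillin, 17 with tylosin and 3 between the antibiotics. The shares were 29.2%, 26.2% and 4.62%, beside 24%, 19.3% and 6.43% of genes over 6. Median centring gave 30 with amoxicillin (46.2% beside 32.7%) and 5 between the antibiotics (7.69% beside 5.9%). Quantile normalization gave 6 between the antibiotics (9.23% beside 8.25%). With 1 array left out there were 24 to 33 with amoxicillin (36.9% to 50.8%, beside 30.3% to 38.4%). With tylosin there were 19 to 35 (29.2% to 53.8%, beside 24.9% to 45%). Between the antibiotics there were 4 to 13 (6.15% to 20%, beside 11.8% to 20.2%), and 14 without the 2 arrays together (21.5% beside 28.1%). Prpf19 changed direction with the probe set. Its amoxicillin difference was -0.0125 as the mean of all probe sets and -0.12 at the brightest set that is not x-type or s-type, and its tylosin difference -0.0032 and -0.0579. Hnrnpab with tylosin was 0.0379 as the mean of all probe sets. Of 1088 values of named genes against control under the alternatives, 1053 kept their side of the call, 10 lost it and 20 gained it. A change of sign was counted only where the unadjusted p had been under 0.05, which gave 5, and 56 other values changed sign at a higher p. With 3 arrays a group, differences below the spread between arrays could not be resolved. No alternative scaling moved the median of all genes by more than 0.1, a bound close to the members' own amoxicillin median (0.11). With quantile normalization the medians of genes over 6 went from 0.06 with amoxicillin and 0.08 with tylosin to -0.0123 and -0.0039.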
